A study of Mus musculus with 20 samples.

Results

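The mitochondrial genome of the mouse carries 37 genes, and all of them were followed here through the LPS/IFNγ response of macrophages. They were taken by name, as every row of the gene count tables whose symbol starts with mt-. The choice of this group was made with earlier results of these data known. The 37 rows among the 56748 genes of each table comprised 13 subunits of the respiratory chain and ATP synthase, 2 ribosomal RNAs (rRNAs) and 22 transfer RNAs (tRNAs). RNA was sequenced after poly(A) enrichment in 20 libraries of 8 groups, 12 libraries of cells labelled BMDM and 8 of RAW264.7 cells. BMDM are bone marrow-derived macrophages, here from C57BL/6J or, for iNOS KO, B6.129P2-Nos2tm1Lau/J mice. The mice were aged 6 to 12 weeks per the labels (the study's methods start the range later). By those methods fibroblast-conditioned medium supplied M-CSF during differentiation, and the harvested cells were then kept in M-CSF at 20 ng/mL. RAW264.7 is a mouse macrophage-like cell line. The BMDM groups were wildtype and iNOS KO (Nos2 knockout) cells, each either left unstimulated or given LPS (50 ng/mL) and IFNγ (30 ng/mL) for 48 h, with 3 libraries per group. The RAW264.7 groups were wildtype and Akr1a1 KO cells in the same 2 states, with IFNγ at 10 ng/mL and 2 libraries per group. iNOS makes nitric oxide in stimulated macrophages, and AKR1A1 is a reductase that the study examined as a limit on its effects.

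Several features limit these groups as models. The marrow was pooled by genotype and the Akr1a1 KO cells were clones made with CRISPR. The study's methods call the replicates biological and, for RAW264.7 cells, clonal and independent, but no label ties a library to a culture or a clone, so p-values measure the spread between these samples. That spread may be in part technical. For the iNOS KO RNA sequencing the study's methods name RAW264.7 cells where the labels name BMDM; the labels were followed. Replicate B of both unstimulated RAW264.7 groups has a title that says stimulated, while the treatment field and the library name say unstimulated. Nos2 was at 30.7 and 38.1 CPM in those 2 libraries, against 4155 to 8805 CPM in the stimulated RAW264.7 libraries. CPM, the usual depth-scaled unit of read counts, were computed with library sizes adjusted by edgeR's TMM method.

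Each strand of the circular mitochondrial genome is copied into a long transcript, and the tRNAs that lie between the other genes are cut out to release the mRNAs and rRNAs. The 13 subunits join nuclear-encoded partners in complexes I, III, IV and V, while the rRNAs and tRNAs serve the ribosome of the organelle. Mitochondrial mRNAs carry short poly(A) tails, and mature tRNAs carry none of that kind, so that poly(A) libraries hold tRNA reads mainly where a tRNA is still joined to other RNA or has been tailed.

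The changes among the tRNAs fell on a few genes with known places on the mitochondrial chromosome. mt-Th (histidine), mt-Ts2 (serine) and mt-Tl2 (leucine) lie side by side between mt-Nd4 and mt-Nd5, at chrM:11546-11612, chrM:11613-11671 and chrM:11671-11741. mt-Tl1, the other leucine tRNA, lies between mt-Rnr2 and mt-Nd1 at chrM:2676-2750, and mt-Tp (proline) lies on the opposite strand at chrM:15356-15422. Their genes are shown because the tRNA results rest on them, 5′ to 3′ as the tRNA reads, from GRCm38, with the anticodon in capitals.
mt-Th: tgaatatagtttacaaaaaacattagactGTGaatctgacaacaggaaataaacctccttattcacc
mt-Ts2: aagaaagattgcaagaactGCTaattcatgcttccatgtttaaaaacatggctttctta
mt-Tl2: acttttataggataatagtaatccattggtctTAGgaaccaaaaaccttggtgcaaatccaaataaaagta
mt-Tl1: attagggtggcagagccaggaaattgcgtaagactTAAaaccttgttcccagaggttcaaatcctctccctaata
mt-Tp: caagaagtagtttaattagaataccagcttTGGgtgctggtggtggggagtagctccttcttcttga

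Nuclear copies of mitochondrial DNA share sequence with several subunits, and this bears on what their counts hold. On chromosome 1 Gm28661 matched 681 bases of mt-Co2, Gm10925 678 bases of mt-Atp6, Gm28437 783 bases of mt-Co3, Gm10222 294 bases of mt-Nd4l and Gm28439 the first 876 bases of mt-Nd4, each at 100% identity. Gm29216 matched the last 483 bases of mt-Co1 with 1 mismatch, and Gm28438 matched 345 bases of mt-Nd3 with 1 mismatch. Counted from 1 at the gene's first base, these mismatches are A1066T and T3C. They are shown in windows of the gene and its copy, at chrM:6390-6423 and chr1:24616155-24616188 for mt-Co1 and at chrM:9459-9491 and chr1:24613087-24613119 for mt-Nd3 (GRCm38; the copies on the minus strand), with the differing base in capitals.
mt-Co1: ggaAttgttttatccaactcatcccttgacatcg
Gm29216: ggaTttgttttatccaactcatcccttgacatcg
mt-Nd3: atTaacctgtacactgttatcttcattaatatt
Gm28438: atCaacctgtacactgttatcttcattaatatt

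Over the 20 libraries the copy held 4.59 times the counts of mt-Nd3, 1.20 times those of mt-Nd4l, and 0.689, 0.604 and 0.571 times those of mt-Co3, mt-Atp6 and mt-Co2. For mt-Nd4 and mt-Co1 the ratio was 0.00822 and 0.00180, with 63.6% and 31.3% of the gene shared with the copy. A low ratio does not tell whether reads of the shared stretch were counted for the gene. How reads that match both places were assigned is not given in the sources used here. The counts of mt-Nd3, mt-Nd4l, mt-Co3, mt-Atp6 and mt-Co2 are therefore uncertain, as are those of mt-Nd4 and mt-Co1 over the shared stretch. Copies were sought among annotated transcripts over at least 100 bases. That search could not find a copy of a tRNA, nor a copy of mt-Atp8 outside annotated transcripts. The strand setting of the counting is not given either, which leaves mt-Nd6, encoded opposite to the other subunits and sharing 14 bases with mt-Nd5, open to counts from the other strand. The same limit holds for the 8 tRNAs encoded on the strand of mt-Nd6, with mt-Tp, mt-Te, mt-Ty, mt-Tn and mt-Tc among them. mt-Atp8 and mt-Atp6 share 43 bases and mt-Nd4l and mt-Nd4 share 7.

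Total counts ranged from 15072109 to 18878107 in BMDM and from 11876719 to 44583327 in RAW264.7 libraries, and 3 counts corresponded to between 0.0645 and 0.236 CPM. Mean Nos2 levels were 1.41 ± 0.144 CPM in the unstimulated wildtype BMDM libraries and 11069.7 ± 617 CPM in the stimulated ones (SD, n = 3), against 0 and 891 ± 20.7 CPM in iNOS KO cells. Akr1a1 was at 427 to 675 CPM in wildtype and 21.8 to 370 CPM in Akr1a1 KO RAW264.7 libraries. Of 8 macrophage markers 7 or 8 were detected in every library of each group, while summed markers of B and T lymphocytes stayed at or below 0.692 CPM. Summed neutrophil markers were 0.337 to 1.22 CPM in unstimulated and 36.3 to 63.4 CPM in stimulated BMDM, and at most 0.494 against 121 to 419 CPM in RAW264.7 cells, with Ly6g and Retnlg at 0 in all BMDM groups. Summed fibroblast markers were at most 0.293 CPM unstimulated and 0.732 to 16.6 CPM stimulated. Both lists moved with stimulation, and their part in the results was not tested. Stimulated iNOS KO replicate B stood apart from the other stimulated iNOS KO libraries, with a chi-square per gene of 32.1 and 40.8 against them, where the other BMDM replicate pairs lay between 2.78 and 8.54. The RAW264.7 replicate pairs lay between 17.2 and 77.9.

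The subunits together took a smaller share of all counts after stimulation in every group. In wildtype BMDM they held 1.64, 1.83 and 1.61% of counts unstimulated and 1.18, 1.000 and 1.07% stimulated, a ratio of means of 0.640. In iNOS KO BMDM the shares were 1.81, 1.64 and 1.73% and then 0.958, 0.696 and 1.09%, a ratio of 0.529, the lowest value being that of replicate B. The stimulated and unstimulated libraries did not overlap in either genotype (exact permutation test, two-sided, p = 0.1 for each, the smallest p that 3 against 3 allows). Wildtype RAW264.7 cells held 2.81 and 2.67% unstimulated and 1.55 and 1.20% stimulated, a ratio of 0.502. Akr1a1 KO cells went from 2.39 and 2.46% to 1.08 and 1.17%, a ratio of 0.463. The rRNAs held less of the counts as well, with ratios of 0.659 and 0.871 in wildtype and iNOS KO BMDM and 0.244 and 0.237 in wildtype and Akr1a1 KO RAW264.7 cells. Between genotypes the BMDM subunit shares overlapped in both states (exact permutation test, two-sided, p = 0.8 unstimulated and 0.3 stimulated). A share also depends on the amount of all other RNA. By library totals, the median log2 fold change over all genes was -0.39 in wildtype and -0.41 in iNOS KO BMDM. It was -0.26 in wildtype and -0.12 in Akr1a1 KO RAW264.7 cells. In bulk RNA, fewer cells rich in mitochondria, less mitochondrial RNA per cell and more of other RNA cannot be told apart.

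**Figure D1:**
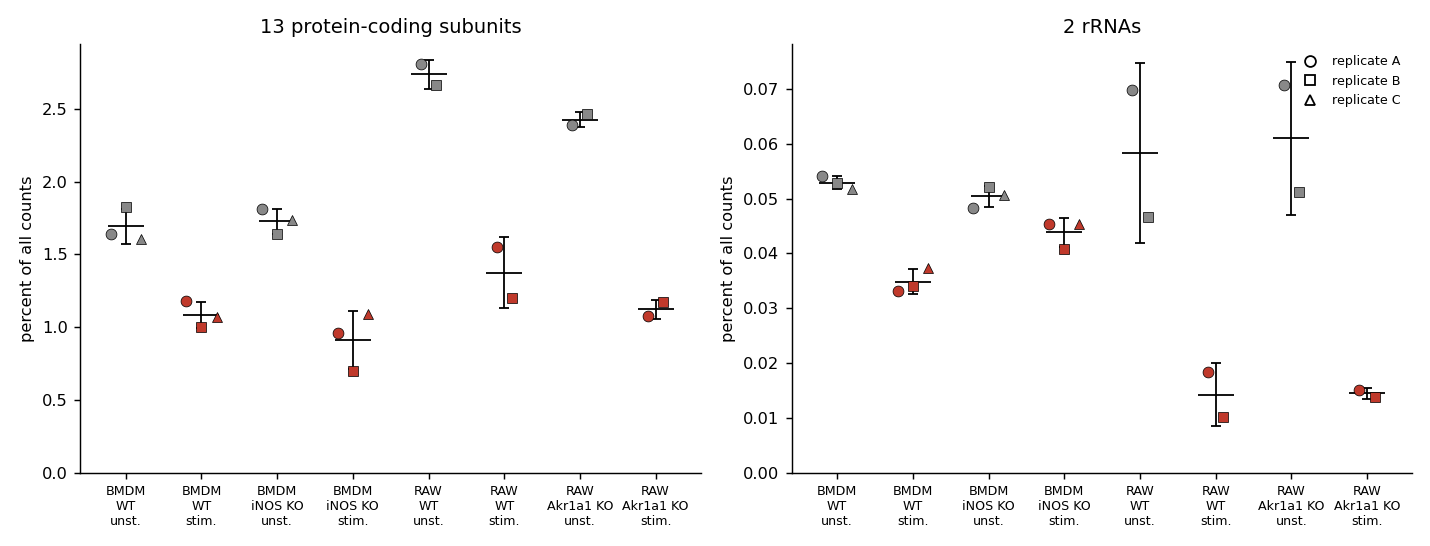
Percent of all counts (y axis, unscaled) in the 13 subunits (left) and in the 2 rRNAs (right), for each of the 8 groups along the x axis; points are libraries, and bars show the mean and SD. The stimulated libraries lie below the unstimulated ones of the same cells in every group for the subunits, and the drop of the rRNAs is steepest in RAW264.7 cells.

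Expressed per kilobase of gene, the subunits of unstimulated wildtype BMDM spanned a wide range of levels. mt-Co1, the catalytic subunit of complex IV, stood highest at 4615 ± 183 CPM per kb (SD, n = 3), followed by mt-Nd1 at 2279 ± 199.6, mt-Cytb at 1689.7 ± 168 and mt-Nd2 at 971 ± 54.4. mt-Nd5, mt-Nd6 and mt-Nd4 followed at 778 ± 59.1, 666 ± 66.7 and 493 ± 42.3 CPM per kb; the SDs of mt-Nd5 and mt-Nd6 overlap, those of the other neighbours so far do not. The 6 remaining subunits, mt-Co2 (82.2 ± 25.4), mt-Atp6 (31.4 ± 9.04), mt-Co3 (28.2 ± 3.51), mt-Nd4l (10.2 ± 5.33), mt-Nd3 (2.09 ± 1.07) and mt-Atp8 (2.06 ± 1.40), include the 5 whose counts are uncertain over nearly the whole gene because of a nuclear copy. Among these 6, the SDs of mt-Atp6 and mt-Co3 overlap, as do those of mt-Nd3 and mt-Atp8. The places of mt-Nd4 and mt-Co1 rest on counts that are uncertain over the stretch shared with a copy. The rRNAs lay between, mt-Rnr1 at 229 ± 15.6 and mt-Rnr2 at 154 ± 6.23 CPM per kb, in libraries made to leave rRNA out. In stimulated wildtype BMDM mt-Co1 was at 5588 ± 378 CPM per kb and mt-Nd1 at 897 ± 40.4, below mt-Cytb at 1015 ± 113. mt-Nd3 and mt-Atp8 in BMDM and mt-Atp8 in RAW264.7 cells fell under a mean of 10 counts per library in at least 1 group and are treated as having few counts.

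In wildtype BMDM, stimulation lowered 9 of the 13 subunits and raised 1, at an adjusted p under 0.05 over the 18691 genes tested (edgeR's quasi-likelihood test, two-sided, Benjamini-Hochberg adjustment). Of all genes tested, 28.5% were lower and 32.4% were higher in the same comparison. The median log2 fold change of the subunits was -0.57, against 0.07 for all genes. All 7 subunits of complex I, which takes electrons from NADH, were lower. mt-Nd1 was at 2049, 2399.7 and 2094 CPM in the unstimulated and 897, 820.0 and 858 CPM in the stimulated libraries, a log2 fold change of -1.35 (SE 0.09, adjusted p = 1.03e-09). mt-Nd2 went from 986, 1072 and 965 to 459.7, 427 and 471 CPM, a log2 fold change of -1.16 (SE 0.08, adjusted p = 1.44e-09). For both genes every stimulated library lay well below the lowest unstimulated one. mt-Nd4 (663, 744 and 631 CPM unstimulated, 541, 471 and 508 stimulated) and mt-Nd5 (1367, 1543 and 1348 CPM, then 1114, 1034 and 1070.3) changed less, with log2 fold changes of -0.42 (SE 0.13) and -0.40 (SE 0.11) and no overlap between the groups. mt-Nd6 went from 335, 384 and 318 to 277, 272 and 286 CPM (log2 fold change -0.31, adjusted p = 0.0364), and its call was lost without unstimulated wildtype replicate A or B or any 1 stimulated wildtype library, at -0.34 to -0.23. mt-Nd4l, at 38, 87 and 40 counts unstimulated and 24, 19 and 22 stimulated, had a log2 fold change of -1.01, which became -0.50 and lost its call without unstimulated wildtype replicate B. mt-Nd3, at 23, 8 and 10 counts and then 4, 2 and 2, had a log2 fold change of -1.96 (SE 0.51) on these few counts.

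The subunits of the other complexes did not move as one in wildtype BMDM. mt-Cytb, the only subunit of complex III that the organelle encodes, was at 1850.3, 2153 and 1796 CPM unstimulated and 1298, 1043 and 1141 CPM stimulated, a log2 fold change of -0.74 (SE 0.14, adjusted p = 0.00029). Of complex IV, which passes electrons to oxygen, mt-Co1 was at 6955, 7457 and 6979.8 CPM and then 9157, 8003 and 8741 CPM, a log2 fold change of 0.28 (SE 0.12, adjusted p = 0.0479). That increase depended on the scaling. With library totals in place of TMM the value of mt-Co1 was -0.19 and did not pass, and the median over all genes moved from 0.07 to -0.39, so the scaled rise of mt-Co1 is one relative to other genes. Its call was also lost without any 1 of 9 libraries, unstimulated wildtype replicates A, B and C, stimulated wildtype A and C, unstimulated iNOS KO A, B and C and stimulated iNOS KO A, at 0.23 to 0.31. mt-Co2 and mt-Co3, the other core subunits of complex IV, had log2 fold changes of -0.32 (adjusted p = 0.0898) and -0.07 (adjusted p = 0.695). Of complex V, the ATP synthase, mt-Atp6 had overlapping groups at 14.7, 26.8 and 22.5 CPM unstimulated and 17.6, 13.2 and 12.3 CPM stimulated. Its log2 fold change of -0.57 (adjusted p = 0.0144) lost its call without unstimulated wildtype replicate B (-0.37) or stimulated wildtype B (-0.51) or C (-0.47). mt-Atp8 had 15, 4 and 5 counts and then 1, 5 and 4, which is too few for a comparison of size. Without unstimulated wildtype replicate B the number of changed subunits was 6 in place of 10. With library totals 11 were lower and 0 higher, but the shares of all genes given for this comparison are with TMM.

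**Figure D2:**
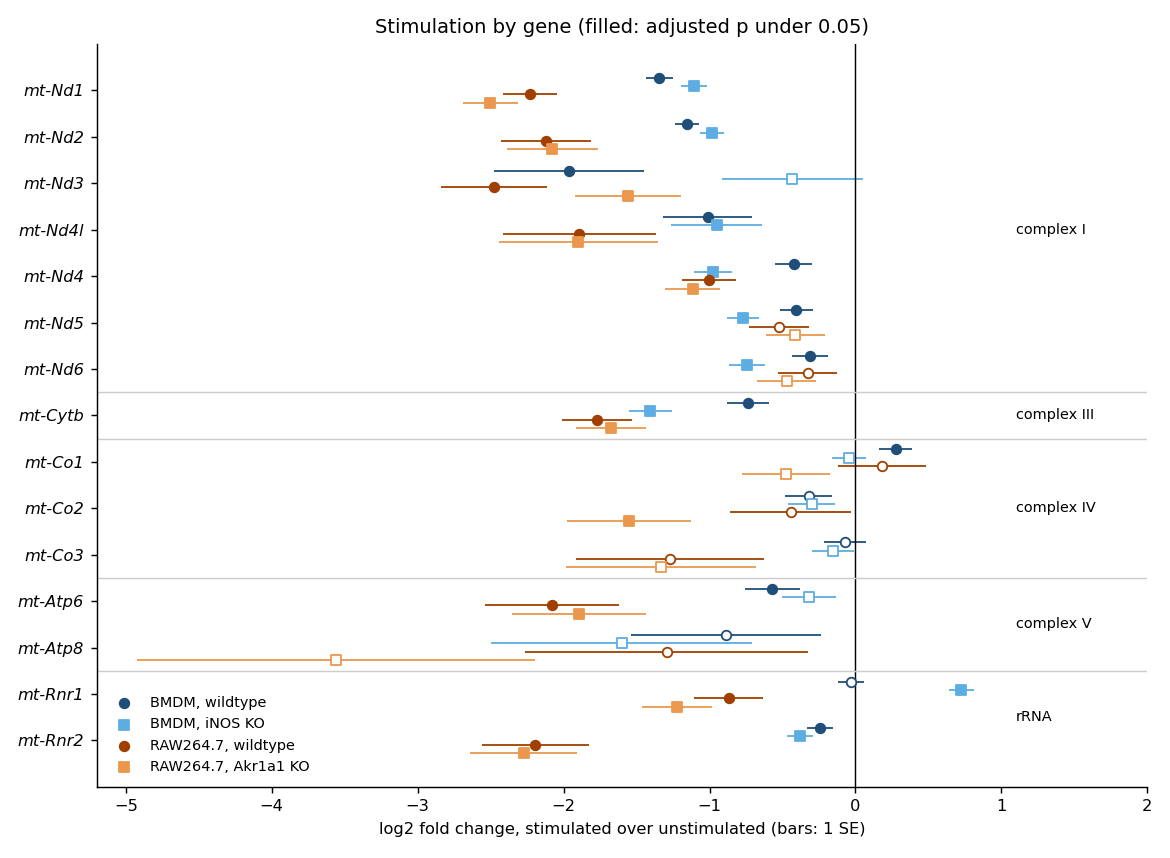
Log2 fold change of stimulated over unstimulated cells (x axis) for the 13 subunits and 2 rRNAs (y axis), with 1 symbol for each cell type and genotype; bars are 1 SE and filled symbols passed an adjusted p of 0.05. mt-Nd1 and mt-Nd2 lie left of 0 in all 4 comparisons, and mt-Co1 lies closer to 0, passing the test in wildtype BMDM alone.

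The make-up of the subunit counts shifted toward mt-Co1, a measure that no scaling between libraries can move. mt-Co1 took 48.6, 47.0 and 49.1% of subunit counts in unstimulated and 66.2, 65.9 and 66.5% in stimulated wildtype BMDM. In iNOS KO BMDM its share was 46.2 ± 2.04% unstimulated and 63.2 ± 1.25% stimulated (SD, n = 3). mt-Nd1 moved the other way, from 14.7 ± 0.411 to 6.59 ± 0.146% in wildtype cells and from 14.3 ± 0.598 to 9.53 ± 0.962% in iNOS KO cells. These 4 changes each had an exact two-sided permutation p of 0.1. So did the differences of the mt-Co1 share and of the mt-Nd1 share between stimulated iNOS KO and wildtype cells. In RAW264.7 cells mt-Co1 took 40.6 and 21.6% in unstimulated and 61.3 and 57.4% in stimulated wildtype libraries, and 45.2 and 41.3% and then 58.3 and 61.4% in Akr1a1 KO libraries. The 21.6% came from replicate B of unstimulated wildtype cells, the deepest library, where mt-Cytb and mt-Nd2 were high.

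**Figure D3:**
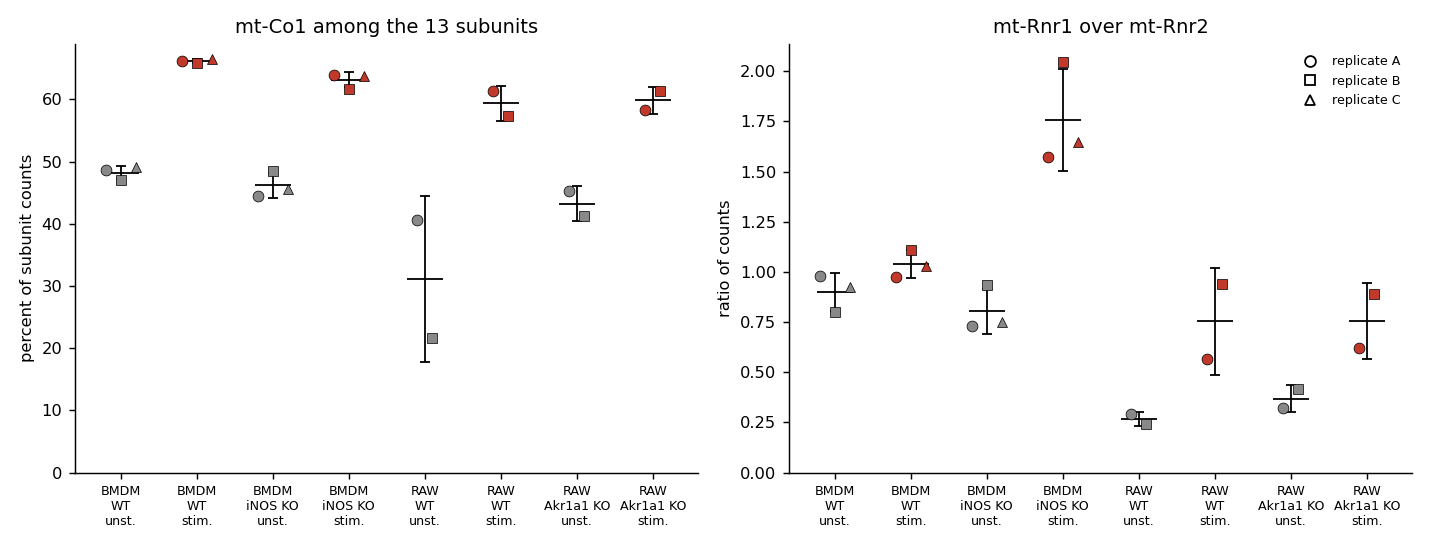
Share of mt-Co1 in the counts of the 13 subunits, in percent (left), and ratio of mt-Rnr1 to mt-Rnr2 counts (right), for the 8 groups along the x axis; points are libraries, and bars show the mean and SD. The mt-Co1 share is higher in every stimulated library than in the unstimulated ones of the same cells, and the rRNA ratio of stimulated iNOS KO BMDM lies above that of stimulated wildtype BMDM.

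In iNOS KO BMDM, stimulation lowered 7 subunits and raised 0 (DESeq2 gave 7 lower and 0 higher, and at an unadjusted p under 0.05 0 were higher), against 24.6% of genes lower and 27.3% higher. The median log2 fold change of the subunits was -0.77, against -0.00 for all genes. mt-Cytb, the complex III subunit, was at 2372, 1953 and 2219 CPM unstimulated and 853, 590.5 and 1025 CPM stimulated (log2 fold change -1.41, SE 0.15, adjusted p = 4.11e-07). mt-Nd1 went from 2222, 1903 and 2122 to 962, 834 and 1106 CPM (log2 fold change -1.11, SE 0.09), and mt-Nd2 from 1005, 953 and 979 to 505, 426 and 556 CPM (log2 fold change -0.98, SE 0.08). mt-Nd4, mt-Nd5, mt-Nd6 and mt-Nd4l were lower by log2 fold changes of -0.98, -0.77, -0.74 and -0.95. mt-Co1 was at 6723, 6779 and 6651 CPM and then 6894, 4839.6 and 7818 CPM, a log2 fold change of -0.04 (adjusted p = 0.784), with replicate B the low one. Without stimulated iNOS KO replicate B, 8 subunits were lower, mt-Co2 among them (-0.39, adjusted p = 0.0257). The values of mt-Cytb, mt-Nd1, mt-Nd2, mt-Nd4, mt-Nd5, mt-Nd6 and mt-Nd4l were then -1.22, -1.01, -0.88, -0.82, -0.61, -0.57 and -0.93, and that of mt-Co1 was 0.13 (adjusted p = 0.0503). With library totals in place of TMM, 11 subunits were lower, and the median over all genes moved from -0.00 to -0.41. The shares of genes above are with TMM. Adding the counts of the nuclear copies, an alternative chosen after the data had been seen, put mt-Co2 (-0.36, adjusted p = 0.0106) and mt-Nd3 (-1.15, adjusted p = 0.00478) past the threshold as well.

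Unstimulated iNOS KO and wildtype BMDM differed in 0 of 13 subunits, 0 of 2 rRNAs and 0 of 12 tested tRNAs by edgeR and by DESeq2, where 4.09% of genes were lower and 1.88% higher. At an unadjusted p under 0.05, 1 subunit, 1 rRNA and 5 tRNAs were lower. That threshold is looser than the adjusted one of the shares just given, so these shares are no background for it. In stimulated cells, where 24.1% of genes were lower and 24.2% higher in iNOS KO, mt-Co1, mt-Cytb, mt-Nd4, mt-Nd5 and mt-Nd6 were lower. Their log2 fold changes were -0.41, -0.50, -0.38, -0.38 and -0.47, and those of mt-Nd1 and mt-Nd2 were 0.17 and 0.13 (adjusted p = 0.132 and 0.196). Without stimulated iNOS KO replicate B, 6 subunits were lower and 2 were higher, with mt-Nd1 and mt-Nd2 at 0.27 and 0.23, and the 5 values became -0.23, -0.31, -0.22, -0.22 and -0.30. The call of mt-Cytb was lost without stimulated wildtype replicate A (-0.41). The call of mt-Nd4 was lost without stimulated wildtype replicate A (-0.33) or C (-0.37) or stimulated iNOS KO A (-0.38), and without stimulated iNOS KO C it was -0.57. With library totals 3 were lower and 2 higher, and in a fit of the 6 stimulated BMDM libraries alone 1 passed. The shares of genes above do not belong to these alternatives. These comparisons share libraries with those of stimulation above.

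Whether the response to stimulation itself differed between the BMDM genotypes was tested as an interaction, which called 20.0% of genes higher and 15.4% lower in iNOS KO. The subunits mt-Cytb and mt-Nd4 passed, with differences of log2 fold change of -0.67 (SE 0.20, adjusted p = 0.0161) and -0.55 (SE 0.18, adjusted p = 0.0243), so that both fell further in iNOS KO cells. mt-Cytb did not pass without stimulated wildtype replicate A (-0.58). mt-Nd4 did not pass without unstimulated wildtype A (-0.54) or C (-0.50), stimulated wildtype A (-0.50), or unstimulated iNOS KO A (-0.50) or C (-0.53). The number of subunits called was 0 without stimulated wildtype replicate A, 1 without any of unstimulated wildtype A or C or unstimulated iNOS KO A or C, 6 without stimulated iNOS KO B and 5 without stimulated iNOS KO C, and DESeq2 called 4. Without stimulated iNOS KO B the differences of mt-Cytb and mt-Nd4 were -0.48 and -0.39, those of mt-Nd5 and mt-Nd6 -0.21 and -0.26, and those of mt-Nd1 and mt-Nd2 0.34 and 0.27, all 6 past the threshold. With the replicate letter as a block within each genotype, an alternative chosen after the data had been seen, 5 were called, mt-Co1 (-0.35), mt-Nd5 (-0.39) and mt-Nd6 (-0.46) in addition. mt-Nd1 had a difference of 0.24 (adjusted p = 0.172) and mt-Co1 one of -0.32 (adjusted p = 0.148).

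**Figure D4:**
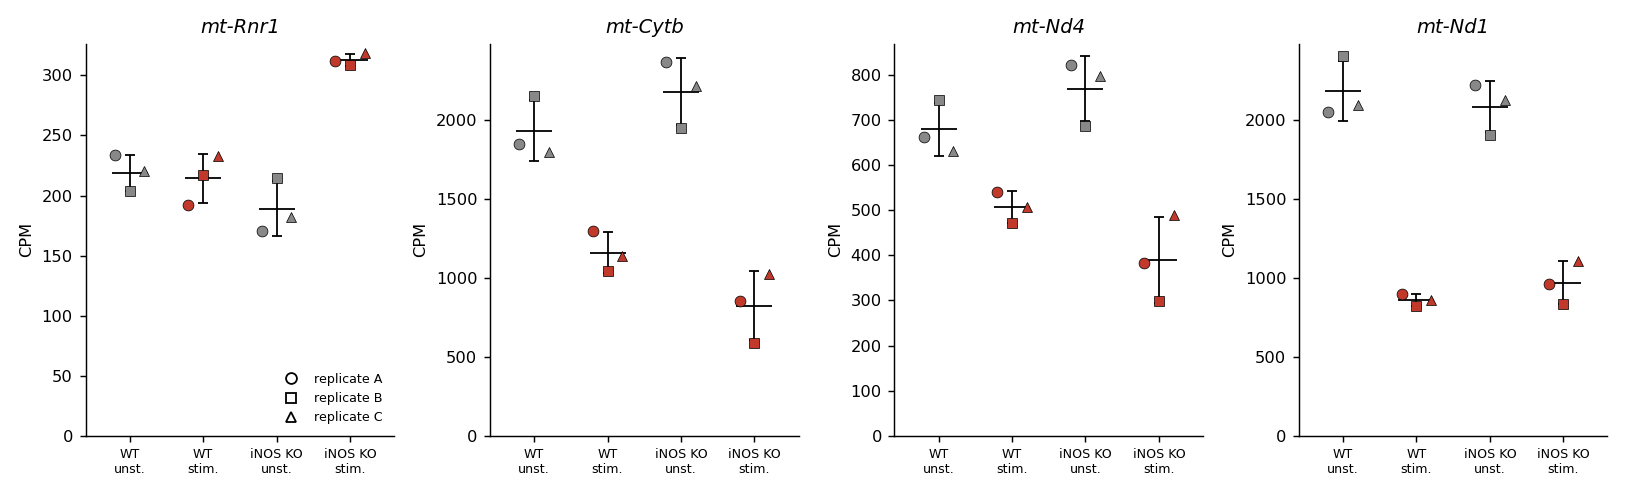
CPM (y axis) of mt-Rnr1, mt-Cytb, mt-Nd4 and mt-Nd1 in the 4 BMDM groups along the x axis; points are libraries, and bars show the mean and SD. Stimulated iNOS KO libraries lie highest for mt-Rnr1 and reach lowest for mt-Cytb and mt-Nd4, while mt-Nd1 is lower after stimulation in both genotypes.

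In RAW264.7 cells, too, subunits of complexes I, III and V fell. The shares of genes that follow are those of edgeR at an adjusted p under 0.05. In wildtype cells 7 subunits were lower and 0 higher (at an unadjusted p under 0.05, 8 lower and 0 higher; DESeq2 gave 7 and 0), where 19.2% of genes were lower and 18.5% higher, with a median log2 fold change of -1.29 against -0.03 for all 19569 genes tested. In Akr1a1 KO cells 8 were lower and 0 higher (at an unadjusted p under 0.05, 10 and 0; DESeq2 gave 8 and 0), where 19.4% of genes were lower and 19.8% higher, with a median of -1.56 against 0.02. mt-Nd1 was at 3345 and 3882 CPM unstimulated and 879 and 661 CPM stimulated in wildtype cells, and at 2919 and 3136 and then 549 and 519 CPM in Akr1a1 KO cells. Its log2 fold changes were -2.23 (SE 0.19, adjusted p = 5.34e-05) and -2.50 (SE 0.19, adjusted p = 3.08e-05). mt-Nd2 went from 2099 and 4276 to 654 and 812 CPM and from 1579.8 and 1816 to 404 and 401 CPM, with log2 fold changes of -2.12 (SE 0.31) and -2.08 (SE 0.31). mt-Cytb went from 4983 and 7135 to 2037 and 1516 CPM and from 3857 and 4677 to 1416 and 1259 CPM, with log2 fold changes of -1.77 (SE 0.24) and -1.67 (SE 0.24). mt-Atp6, which spread widely between unstimulated replicates at 119 and 222 CPM, was at 32.2 and 48.6 CPM in stimulated wildtype cells (log2 fold change -2.08). Its call was lost without unstimulated wildtype replicate B (-1.55). mt-Nd4l (-1.89) likewise lost its call without unstimulated wildtype replicate B (-1.21) or stimulated wildtype B (-1.30).

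mt-Nd4 and mt-Nd3 also fell in both RAW264.7 genotypes, by log2 fold changes of -1.0 and -2.48 in wildtype and -1.12 and -1.56 in Akr1a1 KO cells. In Akr1a1 KO cells mt-Nd3 did not pass without stimulated replicate B (-1.46). mt-Co2 passed in Akr1a1 KO cells alone, from 109 and 37.9 to 20.8 and 29.2 CPM (-1.55), and lost its call without unstimulated replicate A (-0.60) or stimulated A (-1.34) or B (-1.80). mt-Atp6 (-1.89) and mt-Nd4l (-1.90) in Akr1a1 KO cells lost theirs without unstimulated replicate B (-1.03 and -1.66), stimulated A (-1.84 and -1.91) or stimulated B (-1.93 and -1.87). The interaction value of mt-Co2 was -1.11 (adjusted p = 0.894). mt-Co1 was at 10239 and 5536 CPM and then 10388 and 7525 CPM in wildtype cells, so that the groups overlapped (log2 fold change 0.18, adjusted p = 0.676, or -0.07 with library totals). Over both genotypes 12 of 13 subunits were lower and 0 higher (12 and 0 at an unadjusted p under 0.05; DESeq2 gave 9 and 0), where 25.4% of genes were lower and 26.0% higher. mt-Co1 at -0.15 (adjusted p = 0.602) was the exception. This number was 7 without stimulated Akr1a1 KO replicate A and 7 without unstimulated wildtype A. Of these 12, mt-Nd5 (-0.47) and mt-Nd6 (-0.40) had adjusted p-values of 0.0246 and 0.0451, and both lost their calls without unstimulated Akr1a1 KO A or B, stimulated Akr1a1 KO A, unstimulated wildtype A or stimulated wildtype B (-0.47 to -0.33 and -0.41 to -0.24), mt-Nd6 also without stimulated wildtype A. mt-Co3 (-1.30) lost its call without any 1 library but the unstimulated B replicates (-1.33 to -0.55, the last without unstimulated wildtype A). mt-Co2 (-1.0) lost its call without stimulated Akr1a1 KO A (-0.87), unstimulated wildtype A (-0.94) or stimulated wildtype A (-0.92), and was -0.52 without unstimulated Akr1a1 KO A. mt-Atp8 (-2.43), with few counts, lost its call without any 1 library but unstimulated Akr1a1 KO A and stimulated wildtype A (-3.76 to -1.21).

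Leaving out both unstimulated replicates B, whose titles and treatment fields disagree, was an alternative chosen after the data had been seen. It left 6 lower subunits in wildtype cells, 7 in Akr1a1 KO cells and 8 over both genotypes. mt-Co3 then passed in each genotype (-2.01 and -1.85), while mt-Nd4l did not (-1.21 and -1.67), mt-Nd4 did not in wildtype cells (-0.77, adjusted p = 0.0544) and mt-Nd3 did not in Akr1a1 KO cells (-1.63, adjusted p = 0.0668). Over both genotypes mt-Atp8 (-1.10), mt-Nd4l (-1.44), mt-Nd5 (-0.52) and mt-Nd6 (-0.46) did not pass. mt-Nd1, mt-Nd2, mt-Cytb and mt-Atp6 are not among the genes whose call on stimulation of RAW264.7 cells this changed, though mt-Atp6 in Akr1a1 KO cells was then -1.03.

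Akr1a1 KO and wildtype RAW264.7 cells differed in 0 subunits, 0 rRNAs and 0 tRNAs by edgeR in either state, where 0.353% of genes were lower and 0.230% higher unstimulated and 0.199% lower and 0.0869% higher stimulated. At an unadjusted p under 0.05, 3 subunits were lower in each state, and DESeq2 called 0 unstimulated and 2 lower stimulated. The shares of genes in this paragraph are those of edgeR at an adjusted p and are no background for these numbers. The interaction called 0.0153% of genes lower and 0.00511% higher, and 0 of the mitochondrial genes by edgeR and DESeq2; at an unadjusted p under 0.05, 0 subunits, 0 rRNAs and 2 tRNAs passed. For mt-Nd1 the difference between the genotypes' responses was -0.27 (SE 0.25).

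The wildtype responses of BMDM and RAW264.7 cells were compared in 1 fit over the 20 libraries, which called 11.1% of 21826 genes lower and 9.49% higher in BMDM relative to RAW264.7 cells. The cell types differed in source, IFNγ dose and sequencing depth, and these cannot be told apart here. The fall was smaller in BMDM for mt-Nd1 (difference of log2 fold changes 0.82, SE 0.18, adjusted p = 0.00277), mt-Nd2 (0.89, SE 0.27, adjusted p = 0.0213), mt-Cytb (0.97, SE 0.27, adjusted p = 0.0144) and mt-Atp6 (1.44, SE 0.46, adjusted p = 0.0317). mt-Co1, mt-Nd5 and mt-Nd6 had differences of 0.02, 0.05 and -0.06 (adjusted p = 1.00, 0.984 and 0.973). Without unstimulated wildtype RAW264.7 replicate B, the values of mt-Nd2, mt-Cytb and mt-Atp6 were 0.29, 0.68 and 0.91 and 2 subunits passed, and without stimulated wildtype RAW264.7 A mt-Nd2 (0.78) and mt-Atp6 (1.21) did not pass. mt-Atp6 also did not pass without unstimulated wildtype BMDM A (1.22) or stimulated wildtype BMDM A (1.25), and mt-Cytb not without stimulated wildtype RAW264.7 B (0.78). With the counts of nuclear copies added mt-Atp6 was 1.03 (adjusted p = 0.0711). mt-Nd1 passed with each of the 20 libraries left out in turn.

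The 2 rRNAs, 12S (mt-Rnr1) and 16S (mt-Rnr2) of the mitochondrial ribosome, moved in opposite directions in iNOS KO BMDM. In wildtype BMDM mt-Rnr1 was at 233, 204 and 220.0 CPM unstimulated and 192, 217 and 233 CPM stimulated, so that the groups overlapped (log2 fold change -0.03, or -0.50 and past the threshold with library totals). In iNOS KO BMDM it was at 170.2, 215 and 182 CPM and then 312, 309 and 319 CPM, a log2 fold change of 0.73 (SE 0.09, adjusted p = 2.41e-06), or 0.31 and past the threshold with library totals. Every stimulated iNOS KO library lay above every other BMDM library. mt-Rnr1 was higher in stimulated iNOS KO than stimulated wildtype cells by a log2 fold change of 0.55 (SE 0.09, adjusted p = 5.71e-05), and the interaction was 0.76 (SE 0.12, adjusted p = 0.000119). With each of the 12 libraries left out in turn it lay between 0.69 and 0.86, and with library totals in place of TMM it was 0.81.

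mt-Rnr2 was at 238, 255 and 238 CPM and then 197, 195 and 227 CPM in wildtype BMDM (log2 fold change -0.24, adjusted p = 0.0292). Its call was lost without unstimulated wildtype replicate B (-0.21) or stimulated wildtype A (-0.21) or B (-0.20). In iNOS KO BMDM it was at 233, 230.3 and 243 and then 198, 151 and 193 CPM (log2 fold change -0.38, adjusted p = 0.00189, or -0.27 without stimulated replicate B). The interaction of mt-Rnr2 was -0.14 (adjusted p = 0.443). The ratio of mt-Rnr1 to mt-Rnr2 counts was 0.901 ± 0.0933 unstimulated and 1.04 ± 0.0692 stimulated in wildtype cells (SD, n = 3; exact permutation p = 0.2) and 0.805 ± 0.112 and 1.75 ± 0.254 in iNOS KO cells (exact permutation p = 0.1). Rn18s-rs5, a cytosolic 18S rRNA sequence and so a sign of how much rRNA entered a library, held 1.65 to 2.70% of counts over the BMDM libraries.

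Both rRNAs fell in RAW264.7 cells. mt-Rnr2 went from 485 and 359.8 to 128 and 57.1 CPM in wildtype and from 500.1 and 342 to 94.7 and 79.4 CPM in Akr1a1 KO cells, with log2 fold changes of -2.19 (SE 0.37, adjusted p = 0.00192) and -2.27 (SE 0.37, adjusted p = 0.00154). mt-Rnr1 went from 142 and 88.0 to 72.1 and 53.8 CPM in wildtype cells (log2 fold change -0.87) and from 160.4 and 142 to 59.0 and 70.5 CPM in Akr1a1 KO cells (-1.22). The wildtype call of mt-Rnr1 was lost without unstimulated replicate A (-0.48) or stimulated B (-0.63). Against the wildtype response of BMDM the differences were 1.89 (SE 0.32, adjusted p = 0.000195) for mt-Rnr2 and 0.77 (SE 0.23, adjusted p = 0.0205) for mt-Rnr1, the latter lost without unstimulated wildtype RAW264.7 A (0.38), stimulated wildtype RAW264.7 B (0.58) or unstimulated wildtype BMDM B (0.72), or with library totals (0.62). Rn18s-rs5 moved in the same direction in RAW264.7 cells, from 0.622 to 1.21% of counts unstimulated to 0.497 to 0.636% stimulated, and its part in the result was not tested.

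Most of the 22 tRNAs were barely counted. A mean of 10 counts per library in every group was reached by 4 tRNAs in BMDM and by 3 in RAW264.7 cells, and 12 and 13 tRNAs passed the minimum of 10 counts in total for a test. mt-Tf had 0 counts in all 20 libraries, which allows up to 3 counts per library. mt-Tp alone made up 61.4 ± 4.44% of tRNA counts in unstimulated and 83.3 ± 3.85% in stimulated wildtype BMDM (SD, n = 3), and 28.9 and 24.1% and then 69.3 and 87.4% in wildtype RAW264.7 cells. In wildtype BMDM 5 tRNAs were lower and 1 higher, where 28.5% of genes were lower and 32.4% higher, and in iNOS KO BMDM 3 were lower and 1 higher, where 24.6% and 27.3% of genes were. In wildtype RAW264.7 cells 6 were lower and 0 higher, where 19.2% and 18.5% of genes were, and in Akr1a1 KO RAW264.7 cells 4 lower and 0 higher, where 19.4% and 19.8% of genes were. DESeq2 likewise called 0 higher in both RAW264.7 genotypes, and 0 were higher at an unadjusted p under 0.05. A tested tRNA that was high in 1 group alone had to pass through that group, so these numbers do not describe all 22.

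The cluster of mt-Th, mt-Ts2 and mt-Tl2, whose sequences stand above, fell to a few counts. mt-Tl2 had 109, 35 and 63 counts in unstimulated and 2, 1 and 2 in stimulated wildtype BMDM, which is at least 17.9-fold lower when 3 counts per library are taken as the floor. mt-Ts2 had 30, 6 and 19 and then 1, 1 and 1 (at least 4.76-fold lower), and mt-Th had 43, 15 and 29 and then 2, 3 and 1 (at least 7.57-fold lower). All 3 passed, and in each the groups did not overlap. In iNOS KO BMDM mt-Tl2 had 46, 78 and 67 counts and then 14, 11 and 7 (log2 fold change -2.15), mt-Ts2 had 12, 37 and 38 and then 2, 10 and 3 (-2.09, or -3.14 without stimulated iNOS KO replicate B), and mt-Th had 10, 20 and 14 and then 2, 15 and 5 (-0.57, adjusted p = 0.437). The 15 counts of mt-Th and the 10 of mt-Ts2 came from replicate B.

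In stimulated cells mt-Tl2 was at least 3.41-fold higher in iNOS KO than in wildtype BMDM (adjusted p = 0.0142), a call lost without stimulated wildtype replicate B or stimulated iNOS KO A. The interactions of mt-Tl2 and mt-Th passed with fitted values of 2.78 (adjusted p = 0.0166) and 2.88 (adjusted p = 0.0273), which are no bounds because they depend on the prior count where stimulated wildtype libraries were at or below the floor. The interaction of mt-Tl2 did not pass without stimulated wildtype B or stimulated iNOS KO A, nor that of mt-Th without unstimulated wildtype A, stimulated wildtype A or C, unstimulated iNOS KO A or stimulated iNOS KO B (1.75). In RAW264.7 cells mt-Tl2 had 115 and 348 counts and then 5 and 8 in wildtype and 94 and 198 and then 1 and 4 in Akr1a1 KO cells, with log2 fold changes of -4.23 (SE 0.43) and -5.41 (SE 0.48). mt-Ts2 was at least 16.2-fold lower in wildtype and at least 13.3-fold lower in Akr1a1 KO cells, and mt-Th at least 10.9-fold lower in Akr1a1 KO cells. Without stimulated replicate A the fitted value of mt-Ts2 in Akr1a1 KO cells was -8.81 in place of -4.65.

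mt-Tl1 fell in all 4 comparisons. It had 78, 84 and 58 counts and then 12, 18 and 15 in wildtype BMDM (log2 fold change -1.95, SE 0.24) and 74, 68 and 63 and then 29, 13 and 27 in iNOS KO BMDM (-1.16, SE 0.23). In RAW264.7 cells it had 171 and 348 and then 38 and 14 counts in wildtype (-2.48) and 105 and 180 and then 37 and 22 in Akr1a1 KO cells (-1.90). The call in wildtype RAW264.7 cells was lost without unstimulated replicate A (-2.08), and that in Akr1a1 KO cells without any 1 of its 4 libraries (-2.39 to -1.53) or without both unstimulated RAW264.7 replicates B (-2.10). mt-Te (glutamate) had 15 and 33 counts in unstimulated and 0 and 0 in stimulated wildtype RAW264.7 libraries, at least 4.59-fold lower, and mt-Ty (tyrosine) had 17 and 44 and then 1 and 2, at least 5.56-fold lower. In Akr1a1 KO cells mt-Te had 13 and 14 and then 5 and 3 counts (-1.46, adjusted p = 0.165) and mt-Ty 9 and 13 and then 5 and 5 (-0.79, adjusted p = 0.339). In wildtype BMDM mt-Te passed narrowly at -1.13 (adjusted p = 0.0499), a call lost without any 1 wildtype library, unstimulated iNOS KO A or stimulated iNOS KO A or B (-1.34 to -0.96). Over both RAW264.7 genotypes, where 25.4% of genes were lower, 7 tRNAs were lower, mt-Tl1, mt-Tl2, mt-Ts2, mt-Th, mt-Te, mt-Ty and mt-Ti, the last on at most 5 counts per library. The call of mt-Ti was lost without any 1 of unstimulated or stimulated Akr1a1 KO A, stimulated Akr1a1 KO B, unstimulated wildtype A or stimulated wildtype B. With each library left out in turn, mt-Ti reached the minimum of counts for a test in 6 fits and passed in 1 of them.

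mt-Tp was the 1 tRNA called higher in BMDM, while mt-Tn, mt-Tc and mt-Ty had values above 0 in both genotypes without passing (0.18 to 0.43 in wildtype and 0.23 to 0.73 in iNOS KO cells). It was at 24.3, 26.2 and 25.1 CPM unstimulated and 38.1, 35.6 and 35.4 CPM stimulated in wildtype cells (log2 fold change 0.53, SE 0.08, adjusted p = 1.71e-05) and at 21.6, 22.1 and 20.5 and then 32.6, 37.1 and 35.2 CPM in iNOS KO cells (0.71, SE 0.08, adjusted p = 1.07e-06). With library totals in place of TMM the wildtype value was 0.07 and did not pass, while that of iNOS KO cells was 0.29 and passed. In RAW264.7 cells the values were 0.26 and 0.06 (adjusted p = 0.639 and 0.916).

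**Figure D5:**
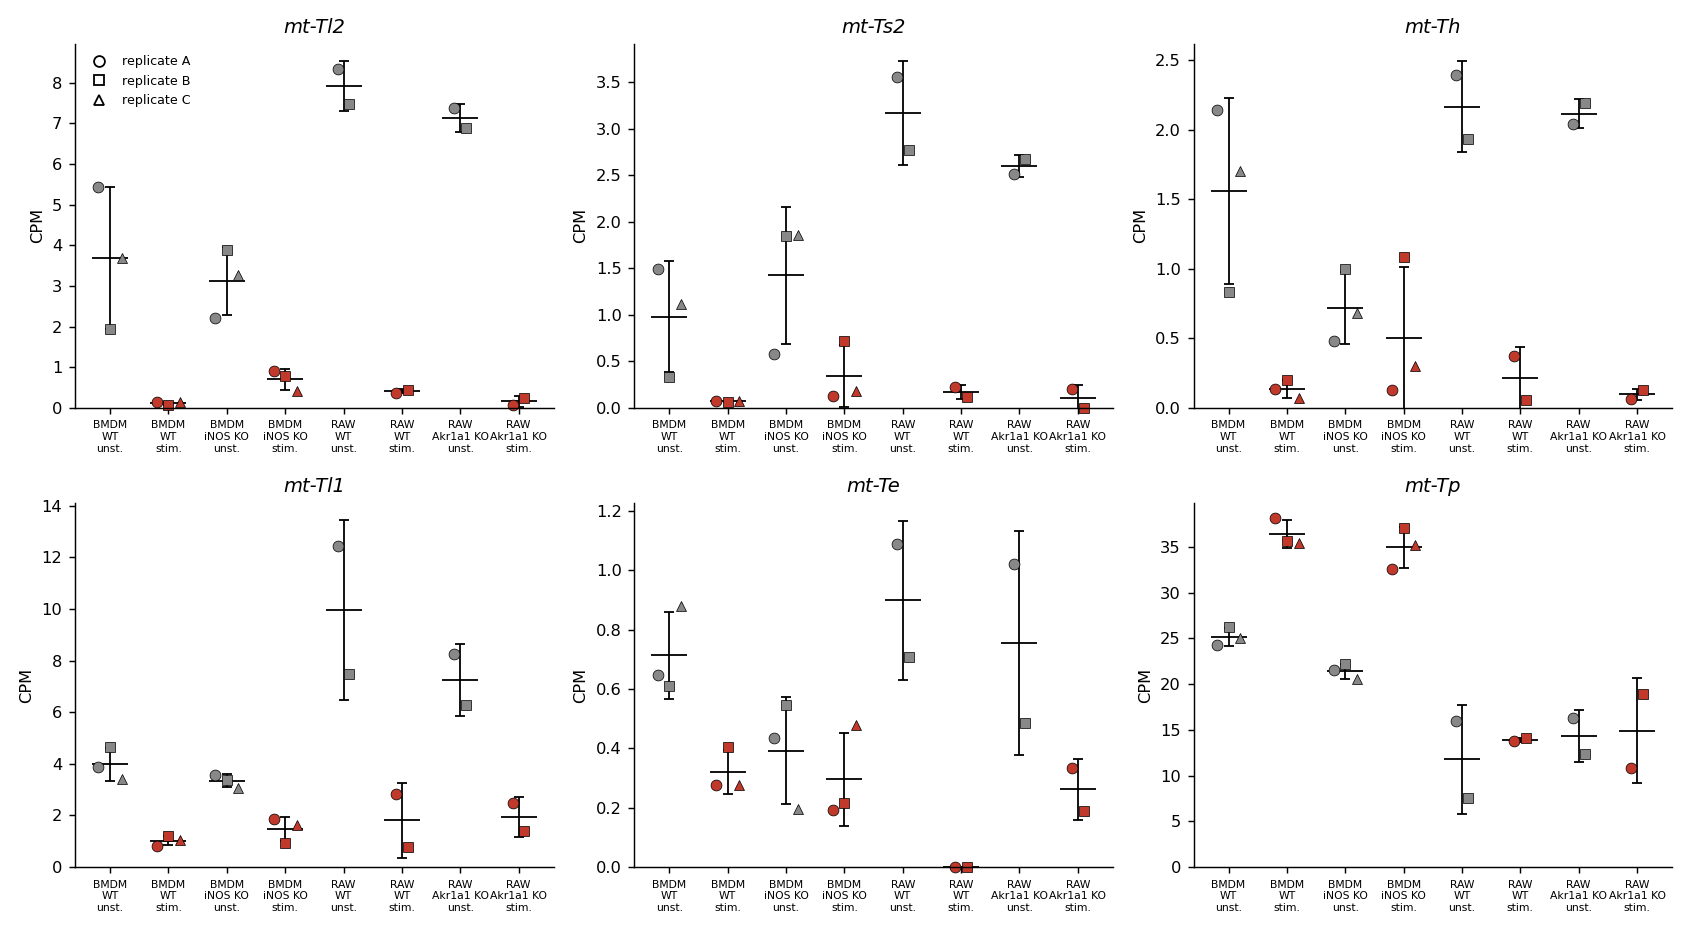
CPM (y axes) of 6 tRNAs, mt-Tl2, mt-Ts2, mt-Th, mt-Tl1, mt-Te and mt-Tp, in the 8 groups along the x axes; points are libraries, and bars show the mean and SD. mt-Tl2, mt-Ts2 and mt-Tl1 have lower means in stimulated groups of both cell types, as has mt-Th, whose iNOS KO groups overlap, and mt-Tp lies higher in stimulated BMDM.

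The nuclear genes that make and handle these RNAs were described by lists. Here and in the paragraphs below, genes are named mainly for a large change on stimulation of wildtype BMDM. A BMDM interaction takes that same change off, so this choice by itself pushes the interactions of the named genes toward the opposite sign. Their adjusted p-values do not allow for it. Beside the counts below stand shares of all genes of 28.5% lower and 32.4% higher in wildtype BMDM, 24.6% and 27.3% in iNOS KO BMDM, and 25.4% and 26.0% over both RAW264.7 genotypes. Of 9 genes of mitochondrial transcription, 5 were lower and 1 higher on stimulation of wildtype BMDM, with a median log2 fold change of -0.81, and 5 lower and 1 higher in iNOS KO BMDM (median -0.86). Tfam, which packages mitochondrial DNA and starts its transcription, had log2 fold changes of -1.41 in wildtype BMDM, -0.87 in iNOS KO BMDM and -0.93 over both RAW264.7 genotypes, and the interaction in BMDM was 0.54 (adjusted p = 0.0129). Polrmt, the mitochondrial RNA polymerase, had -0.91, -0.86 and -0.71, with a BMDM interaction of 0.05 (adjusted p = 0.86). Mterf1b, of the termination factor family, was lower at -1.26 and Mterf4, which serves the mitochondrial ribosome, higher at 0.42 in wildtype BMDM.

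Of 22 genes of RNA processing and stability, 16 were lower and 1 higher in wildtype BMDM (median -0.66), 14 lower and 3 higher in iNOS KO BMDM (median -0.33), and 8 lower and 3 higher over both RAW264.7 genotypes (median -0.14). Lrpprc, which keeps mitochondrial mRNAs stable, had log2 fold changes of -1.33, -0.99 and -1.69 in these 3 comparisons. Elac2, which cuts the 3′ ends of tRNAs from the long transcripts, had -1.30, -0.35 and -0.79, with a BMDM interaction of 0.95 (adjusted p = 2.23e-06). Fastk was the 1 gene higher in wildtype BMDM, at 0.63. In stimulated cells 8 genes of this list were higher and 3 lower in iNOS KO than in wildtype BMDM, where 24.2% of all genes were higher and 24.1% lower.

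Of 13 genes that modify mitochondrial rRNA and tRNA, 8 were lower and 2 higher in wildtype BMDM (median -0.38), 6 lower and 1 higher in iNOS KO BMDM (median -0.28), and 3 lower and 4 higher over both RAW264.7 genotypes (median -0.10). Mrm1, a methyltransferase of the 16S rRNA, was higher in wildtype BMDM at 1.62 and had -0.27 in iNOS KO BMDM (adjusted p = 0.0690), an interaction of -1.89 (adjusted p = 6.39e-08). Trit1, which modifies tRNAs, had 0.99 and -0.15 (interaction -1.14), and Mrm3 and Trmt61b were lower in wildtype BMDM at -1.11 and -1.18. Of 14 genes of mitochondrial DNA replication and nucleotide supply, 5 were lower and 3 higher in wildtype BMDM (median -0.10), 7 lower and 2 higher in iNOS KO BMDM (median -0.34), and 6 lower and 5 higher over both RAW264.7 genotypes (median 0.17). Cmpk2, a mitochondrial nucleotide kinase that interferon induces, rose by log2 fold changes of 9.77, 8.48 and 5.71, and Tk2, the mitochondrial thymidine kinase, by 0.84 in wildtype BMDM. Twnk, the helicase, and Top1mt, the topoisomerase, were lower there at -1.38 and -1.74; the interaction of Top1mt was 1.53.

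Of 12 translation factors, 6 were lower and 0 higher in wildtype BMDM (median -0.33), 7 lower and 0 higher in iNOS KO BMDM (median -0.35), and 5 lower and 3 higher over both RAW264.7 genotypes (median -0.14). The elongation factors Gfm1 and Tsfm had log2 fold changes of -1.47 and -1.62 in wildtype BMDM and interactions of 0.82 and 1.00. Of the regulators of mitochondrial biogenesis, 3 of 5 tested were lower and 1 higher in wildtype BMDM, with Pprc1 (-1.37) and Ppargc1b (-1.13) lower and Esrra (0.31) higher, 4 lower and 1 higher in iNOS KO BMDM, and 3 of 6 lower and 2 higher over both RAW264.7 genotypes. The medians over all genes tested in these 3 comparisons were 0.07, -0.00 and -0.01.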

How the data were processed

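Poly(A)-enriched RNA of 20 libraries was sequenced for the study. The deposited values were raw read counts per gene, which the authors made from reads aligned to mm10, with STAR and CASAVA named in the submitters' processing notes; versions, the strand setting and the treatment of multi-mapped reads are not given in the sources used here. The deposited gene lengths gave levels per kilobase, and sequences and positions came from GENCODE M21 (GRCm38). All 37 mitochondrial genes had the same positions there as in the deposited tables. Nuclear genes did not (2.85% of shared identifiers had the same start), so the tables' nuclear positions were not used.

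Counts were tested with edgeR 4.0.16 in R 4.3.3 (TMM scaling, quasi-likelihood F test, 1 mean per group, genes with at least 10 counts in total, Benjamini-Hochberg adjustment over all genes tested, adjusted p under 0.05), with 1 fit per table and 1 over both tables for BMDM against RAW264.7. Shares were compared with exact permutation tests. Shares are percents of unscaled counts. DESeq2 1.42.0, other scalings, filters and sample sets, and each library left out in turn, were alternatives. Shares of all genes called are for the edgeR fit at an adjusted p under 0.05. Shares for an alternative or an unadjusted p are not given. Scripts were tested on simulated data. Nuclear copies were sought among annotated transcripts with BLAST+ 2.17.0 (at least 95% identity over at least 100 bases). Floors (3 counts per library) cover counting error only, while SDs and SEs include the spread between libraries. Depth per library stands in the results.

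The members and the nuclear gene lists were chosen with earlier results of these data known. All mitochondrial genes were eligible to be named. Of each nuclear list, the genes named were drawn from the called genes that rose most (2) and fell most (2) on stimulation of wildtype BMDM, plus Tfam, Polrmt, Lrpprc and Cmpk2.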

Additional observations from a re-analysis of the deposited data

Results flagged for a closer look

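The response to stimulation differed between iNOS KO and wildtype BMDM, by the interaction term of the edgeR fit, for 5 of 27 tested mitochondrial genes. Of all genes tested, 20.0% were higher and 15.4% lower in iNOS KO by that term. The difference of log2 fold changes was 0.76 for mt-Rnr1 (adjusted p = 0.000119), -0.67 for mt-Cytb (adjusted p = 0.0161) and -0.55 for mt-Nd4 (adjusted p = 0.0243). It was 2.78 for mt-Tl2 (adjusted p = 0.0166) and 2.88 for mt-Th (adjusted p = 0.0273), both fitted on few counts. Of these 5, mt-Rnr1 was the one that passed with each of the 12 libraries left out in turn.

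The wildtype responses of BMDM and RAW264.7 cells differed, by the same kind of term in the fit over 20 libraries, for 8 mitochondrial genes. All 8 had a higher log2 fold change in BMDM than in RAW264.7 cells. Of all genes tested, 9.49% were higher and 11.1% lower in BMDM by that term. The differences of log2 fold changes were 0.82 for mt-Nd1, 0.89 for mt-Nd2, 0.97 for mt-Cytb and 1.44 for mt-Atp6 among the subunits, and 0.77 for mt-Rnr1 and 1.89 for mt-Rnr2. mt-Ty (3.75, adjusted p = 0.00404) and mt-Te (5.66, adjusted p = 0.00887) had 3 counts or fewer in both stimulated wildtype RAW264.7 libraries, so their values depend on the prior count, and mt-Te did not pass without stimulated wildtype RAW264.7 replicate B.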

How the results depend on the processing

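With library totals in place of TMM the number of subunits called on stimulation of iNOS KO BMDM was 11, and mt-Co1 in wildtype BMDM reversed to -0.19. With no filter on counts, 1 subunit was called between unstimulated BMDM genotypes, 6 in the BMDM interaction, 2 and 3 between unstimulated and stimulated RAW264.7 genotypes and 1 in the RAW264.7 interaction. With only the groups compared in the fit, 2 were called between unstimulated and 1 between stimulated BMDM genotypes. DESeq2 called 4 in the BMDM interaction and 2 between stimulated RAW264.7 genotypes, and its size factors in edgeR gave 4 in the BMDM interaction. Without both unstimulated RAW264.7 replicates B, 2 were called in BMDM against RAW264.7. The cause of these moves was not tested. The shares of all genes given above are for the fit with TMM, the count filter and all libraries. They do not belong to these numbers or to those with libraries left out.

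Leaving out each library in turn gave 6 to 11 called subunits on stimulation of wildtype BMDM, 7 to 8 of iNOS KO BMDM, 6 to 7 of wildtype RAW264.7, 5 to 9 of Akr1a1 KO RAW264.7 and 7 to 11 over both RAW264.7 genotypes. It gave 0 to 1 between unstimulated and 3 to 8 between stimulated BMDM genotypes, 0 to 6 in the BMDM interaction and 2 to 5 in BMDM against RAW264.7. The lowest numbers came without unstimulated wildtype BMDM B (6), stimulated wildtype BMDM A (3 and 0), stimulated Akr1a1 KO A or B (5), and unstimulated wildtype RAW264.7 B or stimulated wildtype RAW264.7 A (2). The stimulated over unstimulated ratio of the share of all 37 mitochondrial genes lay between 0.614 and 0.667, 0.490 and 0.601, 0.433 and 0.560, and 0.439 and 0.476 for wildtype BMDM, iNOS KO BMDM, wildtype RAW264.7 and Akr1a1 KO RAW264.7.
A tally over all alternatives covered the subunits, the rRNAs and the tRNAs called before any alternative was applied. These genes kept their side of the threshold in 4266 comparisons of a gene and a setting, 143 of them with another sign where neither value passed. They lost the call in 158, gained one in 97 and reversed a called value in 1. Calls gained by the other tRNAs are not in the tally. Scaling by genes outside the mitochondrial genome changed none of 212.

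With the group mean of each gene taken off, log CPM of same-letter libraries correlated at -0.517 to 0.497 in BMDM and -0.165 to 0.438 in RAW264.7. Different-letter BMDM libraries correlated at -0.500 to 0.477. With 2 libraries per group, the different-letter RAW264.7 values are the same-letter ones with the sign turned. No label pairs the libraries, so the letters were not taken to pair samples across the table. Between unstimulated and stimulated libraries of 1 genotype the same-letter values were -0.258 to 0.0844 in wildtype BMDM, 0.121 to 0.497 in iNOS KO BMDM, 0.438 in wildtype RAW264.7 and 0.103 in Akr1a1 KO RAW264.7. With the letter as a replicate block, 10, 7, 0 and 6 subunits were called in the BMDM comparisons and 2 in the interaction, 7, 8 and 11 on stimulation of RAW264.7 cells, 0 between their genotypes and 4 in BMDM against RAW264.7. With a block within each genotype, added after seeing the data, 11 and 8 were called on stimulation of BMDM, 5 in the BMDM interaction, 8, 12 and 12 in RAW264.7, 0 in the RAW264.7 interaction and 5 in BMDM against RAW264.7. Counts limited mt-Nd3, mt-Atp8 and most tRNAs.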
